A study of Mus musculus with 50 samples.

Results

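The comparison set thyroids of mice given antibodies against the Notch ligands Jagged1 and Jagged2 (aJ1aJ2) against thyroids of mice given an anti-ragweed isotype antibody (RW), 5 days after the injection. The libraries were chosen by a measured value, the share of thyroglobulin: the comparison kept a library only where thyroglobulin (Tg) took 5% or more of all counts, which left 8 of the 10 libraries of both groups (4 of 5 RW and 4 of 5 aJ1aJ2), out of 50 libraries in the series. The mice were C57BL/6 males, with an age of 10 to 14 weeks in one label and 10 to 12 weeks in another. Each mouse received 1 intraperitoneal dose, either 40 mg/kg of the isotype antibody or 20 mg/kg of each ligand antibody. Another 5-day group, dosed with 5 mg/kg of anti-Notch1 and 10 mg/kg of anti-Notch2 (aN1aN2, 5 libraries), entered the statistical model so that all 3 groups shared an estimate of the spread. The submitters' description also mentions injections of the thyroid hormones T4 and T3 from day 2 without saying which of these mice received them, so any part of that treatment in these values cannot be told apart. Time of day at collection is not given in the sources used here.

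Notch is a receptor on the cell surface that is activated by ligands of the Jagged and Delta-like families on a neighbouring cell. Activation releases the intracellular part of the receptor, which acts with the DNA-binding protein RBPJ to switch on genes such as those of the Hes and Hey families. The thyroid follicular cell makes thyroglobulin, a very large glycoprotein that is folded and glycosylated in the endoplasmic reticulum, moved through the Golgi and secreted into the follicle, where it is iodinated. Folding in the endoplasmic reticulum depends on chaperones such as BiP (Hspa5) and GRP94 (Hsp90b1), on protein disulfide isomerases and on the lectin chaperones calreticulin (Calr) and calnexin (Canx). The circadian clock is a feedback loop in most cells, in which CLOCK and BMAL1 (Arntl) drive the Per, Cry and Nr1d genes, whose products in turn repress the loop.

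Tg took 38.8%, 38.3%, 34.0% and 40.3% of all counts in the kept RW libraries (replicates 1, 2, 4 and 5) and 24.7%, 42.4%, 38.0% and 39.4% in the kept aJ1aJ2 libraries (the same numbers). The left-out libraries, both replicate 3, had Tg at 0.450% (RW) and 2.39% (aJ1aJ2), and the kept 5-day library nearest to the limit, aN1aN2 replicate 1, had 8.80%. Tg chose the libraries, so its level was not tested. The left-out libraries held 11.7% and 7.82% of their counts in 9 skeletal muscle genes, against 0.109% to 1.02% in the kept RW libraries and 0.158% to 1.82% in the kept aJ1aJ2 libraries. Total counts in the kept libraries ran from 23832498 to 52835846. Replicates are separate samples by their labels, and p-values measure the spread between these samples only. In whole tissue, fewer cells of a type and less RNA per cell cannot be told apart.

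At an adjusted p under 0.05, 242 of 18529 genes tested (1.31%) differed between the groups, 107 higher (0.577%) and 135 lower (0.729%) with ligand blockade. Among those that rose were 6 genes of the circadian clock, of which Nr1d1 at 3.53-fold (log2 fold change 1.82, SE 0.147) had the smallest p and Dbp at 8.64-fold the largest change. Among those that fell were 6 chaperone genes of the endoplasmic reticulum, Hsp90b1 at -1.70 on the log2 scale (SE 0.338) among them. Of the 242 genes, 95 changed at least 2-fold, and the smallest adjusted p was 0.000443. All 242 had CPM (counts scaled to library size) ranges that did not overlap between the 4 RW and 4 aJ1aJ2 libraries, as did 2823 of all genes tested (15.2%).

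The count of genes called moved strongly with the libraries in the model. Over all 15 libraries of 5 days, 33 of 18434 genes passed (0.179%; 0.0759% higher and 0.103% lower), all of them among the 242. With the 8 kept RW and aJ1aJ2 libraries alone, 1008 of 17729 passed (5.69%; 2.13% higher and 3.55% lower), and 239 of the 242 were among them. The biological coefficient of variation common to all genes was 0.362 in the model with 3 groups, 0.246 with the 2 groups alone and 0.526 over all 15 libraries. The aN1aN2 replicates 1 and 4 held 7.20% and 4.79% of their counts in skeletal muscle genes, and without them 1600 genes passed.

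**Figure D1:**
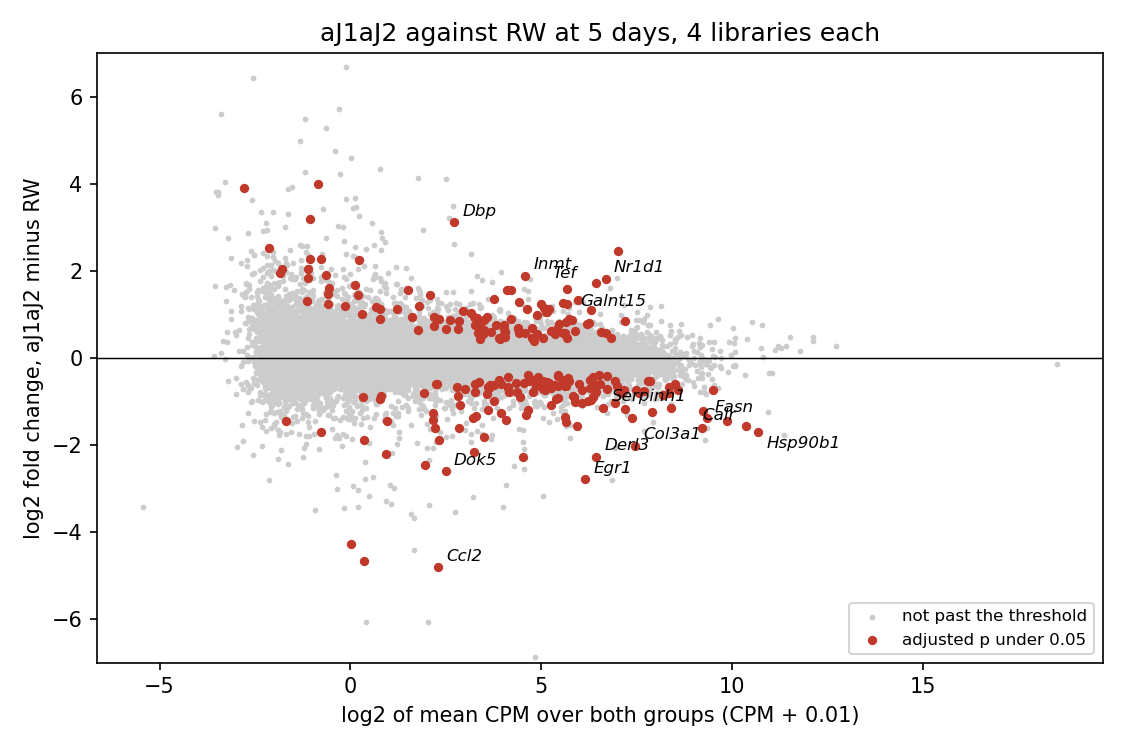
Log2 fold change of aJ1aJ2 over RW at 5 days (vertical axis) against the log2 mean CPM of both groups (horizontal axis), 1 point a gene, with 4 kept libraries in each group. The 242 red points passed an adjusted p of 0.05, Hsp90b1 and Calr lie at the right among those that fell, and 3 genes lie outside the plotted range.

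The endoplasmic reticulum chaperone list held 20 genes, of which 6 fell and none rose, beside 0.729% of all genes that fell. All 20 had a lower mean with ligand blockade, and the median log2 fold change was -1.42 beside 0.03 over all genes tested. Between groups 16 of the 20 did not overlap, beside 15.2% of all genes. In the model of 2 groups alone 16 of the 20 passed, beside 5.69% of all genes, and over all 15 libraries none passed, with a median of -1.37. Leaving out RW replicate 1, 2 or 5 or any 1 of the 4 aJ1aJ2 libraries took the count from 6 to 0, whereas leaving out RW replicate 4 gave 10. Leaving out aN1aN2 replicate 1 or 4 gave 13 or 14.

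The promoters below are 5 of the 7 in this list that carry the letters of the endoplasmic reticulum stress element, and 4 of the 7 genes fell. The letters, sought on either strand in the 250 bases before the RefSeq start (GRCm38.p6), are CCAAT and CCACG with 9 bases of any kind between them. Capitals mark the match, which reads CGTGG to ATTGG where it lies on the opposite strand.
Hspa5 (chr2:34771840-34772089, plus strand): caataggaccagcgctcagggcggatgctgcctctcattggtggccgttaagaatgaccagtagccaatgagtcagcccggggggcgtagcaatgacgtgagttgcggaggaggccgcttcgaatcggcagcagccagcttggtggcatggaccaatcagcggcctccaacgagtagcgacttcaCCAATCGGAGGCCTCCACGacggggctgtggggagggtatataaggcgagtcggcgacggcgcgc
Hsp90b1 (chr10:86705445-86705694, minus strand): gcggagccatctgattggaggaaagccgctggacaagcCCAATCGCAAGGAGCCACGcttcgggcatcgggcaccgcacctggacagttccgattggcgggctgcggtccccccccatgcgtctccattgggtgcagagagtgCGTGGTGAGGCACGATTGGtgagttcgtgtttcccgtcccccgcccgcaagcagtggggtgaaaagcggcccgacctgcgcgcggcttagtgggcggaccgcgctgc
Calr (chr8:84846932-84847181, minus strand): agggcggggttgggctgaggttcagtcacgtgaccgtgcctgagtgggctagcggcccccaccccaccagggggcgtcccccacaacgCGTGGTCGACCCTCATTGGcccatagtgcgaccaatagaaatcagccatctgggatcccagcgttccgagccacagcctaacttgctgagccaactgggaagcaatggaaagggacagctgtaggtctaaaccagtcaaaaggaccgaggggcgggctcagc
Pdia6 (chr12:17266339-17266588, plus strand): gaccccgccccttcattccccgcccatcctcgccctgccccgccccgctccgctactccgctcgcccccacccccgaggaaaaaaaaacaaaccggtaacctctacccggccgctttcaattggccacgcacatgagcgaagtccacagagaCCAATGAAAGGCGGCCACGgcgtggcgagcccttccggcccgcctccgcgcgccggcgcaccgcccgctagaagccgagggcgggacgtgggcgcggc
Dnajc3 (chr14:118937682-118937931, plus strand): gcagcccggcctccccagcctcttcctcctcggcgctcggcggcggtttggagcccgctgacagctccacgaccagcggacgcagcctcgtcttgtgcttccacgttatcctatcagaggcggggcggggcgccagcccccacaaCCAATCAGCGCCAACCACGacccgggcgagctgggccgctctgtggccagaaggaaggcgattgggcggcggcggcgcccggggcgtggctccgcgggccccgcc

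These letters stood in the promoter of 7 of the 18 list members matched by symbol in the RefSeq table (38.89%), against 35 of 27025 genes in that table (0.13%), a gene counting once whichever of its starts matched. Canx and Creld2, which did not pass the test, carried them in addition to the genes shown. The match began 65 bases before the start in Hspa5, 98 in Pdia6, 105 in Dnajc3 and 162 in Calr, and Hsp90b1 had 2 matches, at 107 and 212 bases. A match describes the letters and shows no binding.

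Hsp90b1, which encodes the chaperone GRP94, had 2471, 3268, 1998 and 2392 CPM in the RW libraries and 750, 814, 684 and 876 CPM in the aJ1aJ2 libraries. The highest aJ1aJ2 library lay below the lowest RW library by more than the whole spread of the aJ1aJ2 group. The difference was -1.70 on the log2 scale (SE 0.338, adjusted p = 0.0344). Hspa5, which encodes BiP had 3808, 5622, 2827 and 3959 CPM in RW and 1349, 1129, 1080 and 1167 CPM in aJ1aJ2. Its groups did not overlap either, and the difference of -1.78 (SE 0.405) missed the threshold at an adjusted p of 0.0534. RW replicate 2 had the highest level, and its part in this result was not tested.

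Calreticulin (Calr), a lectin chaperone that binds freshly glycosylated proteins, had 2012, 2297, 1721 and 1918 CPM in RW and 633, 784, 559 and 700 CPM in aJ1aJ2. It fell by 1.57 on the log2 scale (SE 0.292, adjusted p = 0.0284). A processed pseudogene of the same sequence family, Calr-ps, fell as well (17.6 ± 1.87 CPM in RW and 5.01 ± 0.632 in aJ1aJ2, SD, n = 4 each), and reads of the 2 cannot be told apart with certainty. The disulfide isomerases Pdia6 and Pdia3, which form and shuffle disulfide bonds, fell to 0.326 and 0.367 of the RW level. Pdia6 had 735 to 1083 CPM in RW and 259 to 313 in aJ1aJ2. Pdia3 had 1217 to 1590 CPM in RW and 465 to 531 in aJ1aJ2. Pdia6 and Pdia3 each overlap a gene on the opposite strand (Atp6v1c2 and Catsper2), and whether the counting used strand is not given in the sources used here.

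Dnajb11 and Dnajc3, which encode J-domain partners of BiP, completed the 6. Dnajb11 had 195 to 299 CPM in RW and 87.6 to 99.7 in aJ1aJ2, and Dnajc3 had 706 to 937 and 348 to 378. The 14 other members had log2 fold changes from -2.08 for Sdf2l1, a chaperone cofactor, to -0.34 for the transcription factor Atf4, with adjusted p from 0.0518 to 0.475. The transcription factors Atf4, Xbp1 and Ddit3, which act in the unfolded protein response, had overlapping groups. The list took 1.64%, 2.05%, 1.37% and 1.56% of all counts in the kept RW libraries and 0.742%, 0.600%, 0.587% and 0.620% in the kept aJ1aJ2 libraries. The left-out libraries were lower than all of these, at 0.189% (RW) and 0.237% (aJ1aJ2). On the TMM scale, which is the scale of the gene values, 17 of the 20 genes were nevertheless higher in the left-out RW library than in the left-out aJ1aJ2 library, among them Hspa5 (487 and 270 CPM), and Canx, Edem1 and Pdia3 were lower.

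**Figure D2:**
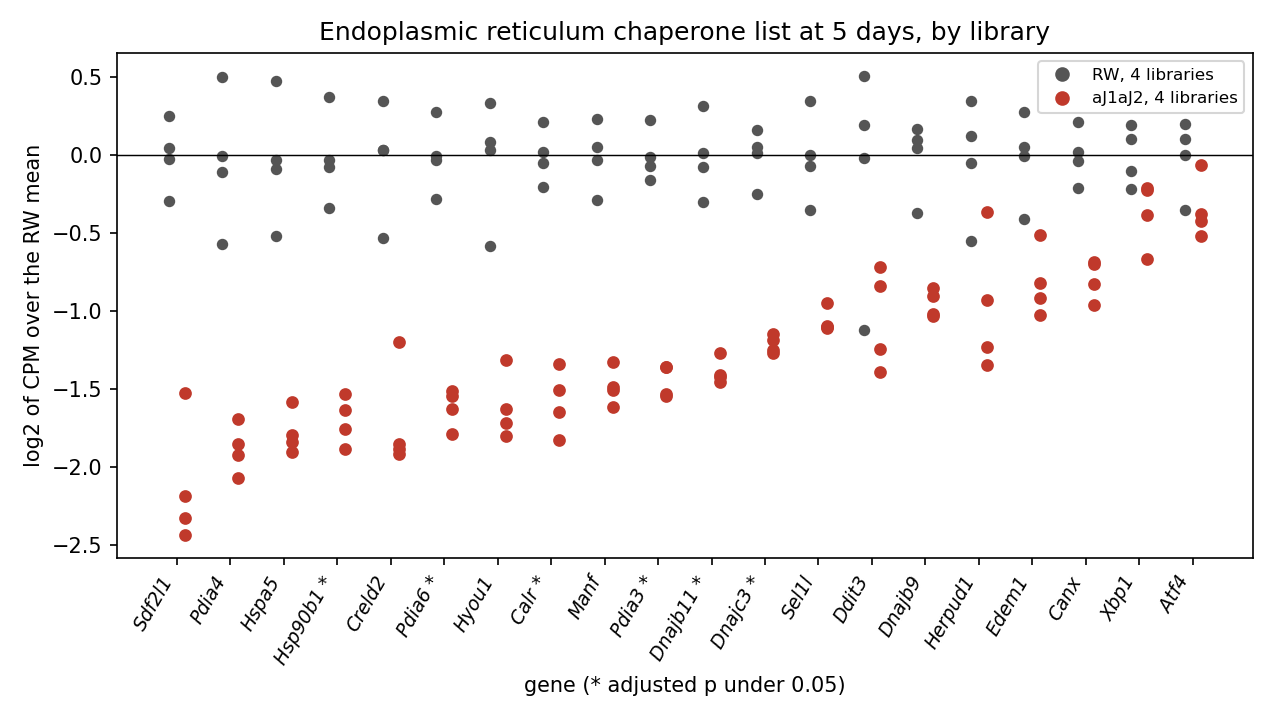
CPM over the RW mean on a log2 scale (vertical axis) for the 20 genes of the endoplasmic reticulum chaperone list, 1 point a library, with 4 RW libraries in grey and 4 aJ1aJ2 libraries in red. Red points lie below every grey point for 16 genes, and the exceptions are Ddit3, Herpud1, Xbp1 and Atf4.

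Members of 4 further lists of the secretory route fell as well. These lists were added after values of these data had been seen. Of the oligosaccharyltransferase, the enzyme complex that attaches sugar chains to proteins entering the endoplasmic reticulum, 4 of 11 subunits fell (Tmem258, Ostc, Rpn1 and Krtcap2), none rose, and all 11 had groups that did not overlap, beside 0.729% of all genes that fell and 15.2% that did not overlap. Over all 15 libraries 1 of the 11 passed. The catalytic subunits Stt3a and Stt3b had log2 fold changes of -0.77 and -0.58 with adjusted p of 0.0505 and 0.0548. The list's median was -0.77. Rpn1, a large subunit near the channel, had 476, 512, 400 and 475 CPM in RW and 205, 222, 189 and 220 in aJ1aJ2, a fall of 1.15 on the log2 scale (SE 0.204, adjusted p = 0.026).

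Of 17 genes for the translocon, through which proteins enter the reticulum, and for the signal peptidase that trims them, 3 fell (Spcs2, Spcs3 and Ssr3) and none rose. Over all genes 0.729% fell. The median of the 17 was -0.65. Spcs3, a signal peptidase subunit, had 291 to 403 CPM in RW and 113 to 162 in aJ1aJ2. Of 28 genes of vesicle traffic between the reticulum and the Golgi, 6 fell (Tmed2, Bet1, Tmed9, Uso1, Surf4 and Kdelr3) and none rose, beside the same 0.729% of all genes. Their median was -0.41. Kdelr3, a receptor that returns escaped chaperones to the reticulum, had 26.1 to 41.1 CPM in RW and 12.8 to 14.7 in aJ1aJ2, while its relative Kdelr1 had 102 to 114 and 87.7 to 111.

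Of 12 genes of reticulum-associated degradation, the disposal of misfolded proteins, 4 fell (Selenok, Derl1, Derl3 and Selenos) and none rose, with a median of -0.52. Derl3, which encodes a derlin of the membrane channel for disposal, had 143, 169, 106 and 160 CPM in RW and 27.7, 39.5, 19.3 and 33.6 in aJ1aJ2. It fell by 2.27 on the log2 scale (SE 0.456, adjusted p = 0.0359), more than Derl1 (-0.44) or Derl2 (-0.53, adjusted p = 0.17). Of the 68 genes in these 4 lists, 17 fell, none rose, 62 had a lower mean, and the median was -0.58, beside 0.729% of all genes that fell. Over all 15 libraries 5 of the 68 passed (1 of the oligosaccharyltransferase, 0 of the translocon, 3 of vesicle traffic and 1 of degradation). Chaperones and these genes together made up 23 of the 135 genes that fell.

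Of 15 genes of thyroid hormone synthesis and thyroid identity besides Tg, none passed the test, and the median was -0.35. Tg itself had a log2 difference of -0.14 with groups that overlapped. The receptor for thyrotropin, Tshr, had 156, 171, 145 and 112 CPM in RW and 66.0, 81.3, 75.6 and 56.6 CPM in aJ1aJ2. The groups did not overlap and the log2 fold change was -1.06 (SE 0.404, adjusted p = 0.219, and 0.00821 with the 2 groups alone). Iyd, which recovers iodide from iodotyrosines, Duox2, which makes the peroxide for iodination, and the anion transporters Slc26a7 and Slc26a4 had groups that did not overlap either, with log2 fold changes of -0.66, -0.62, -0.48 and -1.68 and adjusted p from 0.276 to 0.62. With the 2 groups alone Tshr, Iyd, Duox2 and Slc26a7 passed, beside 5.69% of all genes. Groups did not overlap for 15.2% of all genes in the model with 3 groups. Slc26a4 lay near the floor, at a mean of 0.317 CPM in RW and 0.0942 in aJ1aJ2. It was below the count filter with the 2 groups alone and over all 15 libraries.

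The iodide transporter Slc5a5 ranged from 99.1 to 146 CPM in RW and from 15.8 to 118 in aJ1aJ2. Dio1, which converts T4 to T3, ranged from 240 to 286 CPM in RW and from 139 to 249 in aJ1aJ2. The transcription factors of thyroid identity, Nkx2-1, Pax8, Foxe1 and Hhex, had log2 differences from 0.02 to 0.35 with adjusted p of 0.761 to 0.991. Duox1 and the maturation factors Duoxa1 and Duoxa2, which overlap each other on opposite strands, had log2 differences of -0.35, -0.04 and -0.20, all with overlapping groups.

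Of the core clock list, 6 of 18 genes rose (Nr1d1, Cry2, Tef, Nr1d2, Per3 and Dbp) and none fell, beside 0.577% of all genes that rose, and the median log2 fold change was 0.61. Over all 15 libraries none of the 18 passed, with a median of 0.39, and the 6 genes had adjusted p from 0.0538 to 0.666. Nr1d1, which encodes the repressor REV-ERB alpha, had 44.9, 41.2, 51.6 and 44.5 CPM in RW and 142, 194, 148 and 160 CPM in aJ1aJ2. The gap between the highest RW and the lowest aJ1aJ2 library was wider than the whole spread within either group, and the adjusted p was 0.000443. Nr1d1 overlaps Thra on the opposite strand. The related repressor gene Nr1d2 had 20.0, 20.6, 20.8 and 32.1 CPM in RW and 62.8, 50.7, 44.2 and 46.8 in aJ1aJ2 (log2 1.13, SE 0.176, adjusted p = 0.0139).

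Dbp and Tef encode proline- and acid-rich basic leucine zipper factors that are among the clock's main outputs. Dbp had 1.39, 1.20, 1.95 and 0.916 CPM in RW and 26.4, 6.51, 7.36 and 6.94 CPM in aJ1aJ2, so the group means differed 8.64-fold and replicate 1 stood well above the other aJ1aJ2 libraries. Tef had 37.2, 33.2, 54.7 and 35.9 CPM in RW and 215, 97.4, 102 and 119 in aJ1aJ2. Per3, a period gene, had 7.04 to 10.8 CPM in RW and 48.1, 19.2, 22.2 and 22.0 in aJ1aJ2, with replicate 1 again the highest. Cry2, a cryptochrome repressor, had 18.3 to 27.8 CPM in RW and 41.3 to 52.9 in aJ1aJ2. Dbp, Tef and Cry2 overlap genes on the opposite strand (Sphk2, Gm17597 and D930015M05Rik).

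The promoters of Tef and Per3 are shown because they carry, before the RefSeq start (GRCm38.p6), the letters of the motifs that clock factors read. Capitals mark CACGTG, the E-box, in Tef (1 of its 2 starts with a match) and TTATGTAA, the D-box, in Per3.
Tef (chr15:81802423-81802672, plus strand): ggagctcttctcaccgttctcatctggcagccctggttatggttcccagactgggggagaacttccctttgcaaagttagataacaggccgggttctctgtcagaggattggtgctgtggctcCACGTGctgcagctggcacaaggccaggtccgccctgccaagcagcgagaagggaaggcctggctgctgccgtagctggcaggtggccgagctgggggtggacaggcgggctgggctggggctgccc
Per3 (chr4:151044666-151044915, minus strand): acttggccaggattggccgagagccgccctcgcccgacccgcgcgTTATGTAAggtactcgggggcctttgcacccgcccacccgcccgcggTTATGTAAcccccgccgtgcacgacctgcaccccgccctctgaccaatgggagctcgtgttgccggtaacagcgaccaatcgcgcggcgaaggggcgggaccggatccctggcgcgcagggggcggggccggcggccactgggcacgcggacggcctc

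The E-box letters stood in the promoters of 5 of 15 matched clock genes (33.33%; Bhlhe41, Ciart, Cry1, Per1 and Tef), against 6.86% of all genes in the table, and 1 of these 5 rose. The D-box letters stood in 1 of 15 (6.67%) against 0.98%. Of the heat shock list 2 of 16 matched genes (12.5%, Hspd1 and Hspe1) carried the letters of the heat shock element (GAA, TTC and GAA, with 2 bases of any kind in each gap), against 0.51% of all genes. These 2 genes lie on opposite strands and share the same matched stretch, and neither passed the test. Of 19 matched genes of collagen folding and crosslinking 0 carried the element. The letters TGGGAA, read by RBPJ, stood in 1 of 4 matched Notch readouts (25.0%), against 24.09% of all genes.

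The remaining clock genes did not move together. Cry1 had 15.0 to 24.5 CPM in RW and 6.81 to 12.1 in aJ1aJ2 (log2 -0.94, adjusted p = 0.176), opposite in direction to Cry2. Arntl, which encodes BMAL1, had 49.0 to 62.4 CPM in RW and 37.0, 39.3 and 35.4 in aJ1aJ2 replicates 2, 4 and 5, but 12.3 in replicate 1. Npas2, a partner of BMAL1, had 37.5 to 49.5 CPM in RW, 33.6 to 38.4 in the same 3 aJ1aJ2 libraries and 5.22 in replicate 1. Per2 had 25.2 to 36.1 CPM in RW and 23.0 to 31.5 in those 3 libraries, but 90.9 in replicate 1. These 3 genes were singled out after their values were seen.

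The aJ1aJ2 replicate 1 thus differed from the other aJ1aJ2 libraries in much of the clock list. It also had the lowest Tg share of the kept RW and aJ1aJ2 libraries (24.7%), the highest skeletal muscle share (1.82%) and a summed level of 3166 CPM over 9 adipose markers, against 604 to 1010 CPM in the other 3 aJ1aJ2 libraries and 533 to 1244 CPM in RW. The part of other tissue in its clock values was not tested. Without this library 5 clock genes passed, and Nr1d1 and Cry2 passed in all 13 models that left out 1 library.

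**Figure D3:**
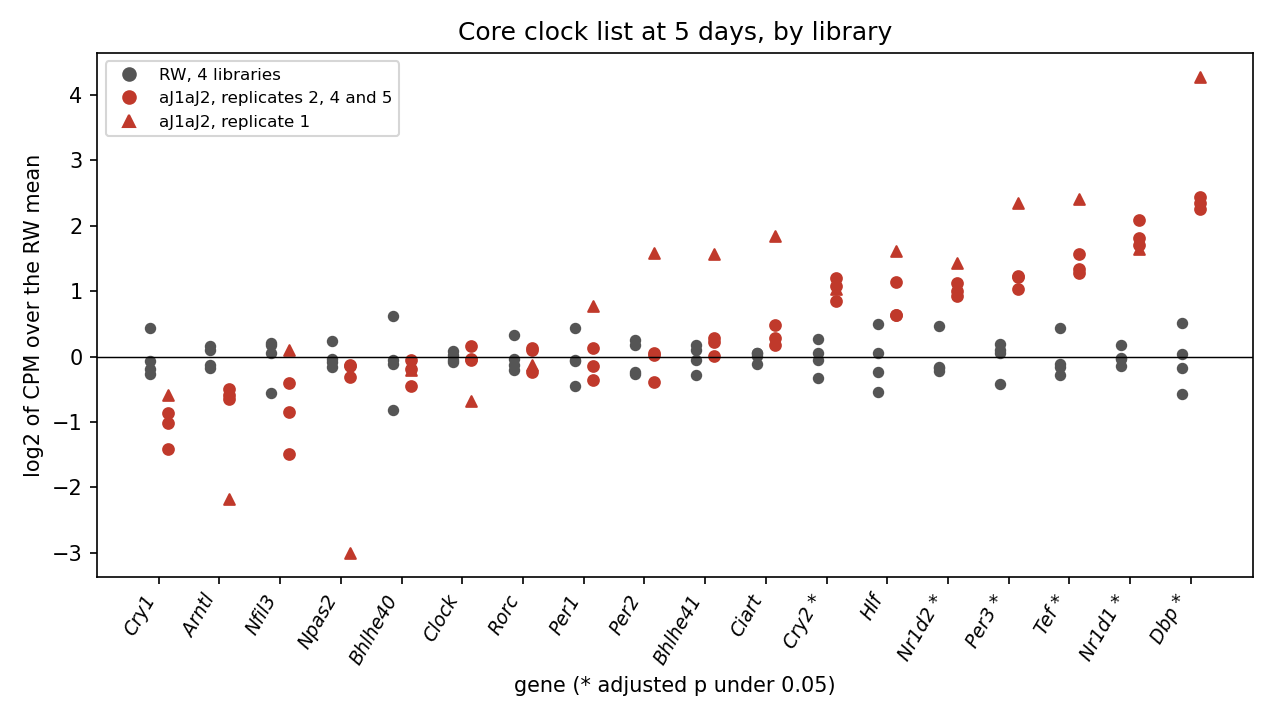
CPM over the RW mean on a log2 scale (vertical axis) for the 18 genes of the core clock list, with 4 RW libraries in grey, aJ1aJ2 replicates 2, 4 and 5 as red circles and replicate 1 as a red triangle. The triangle stands apart from the circles for Arntl, Npas2, Per2 and Dbp, while for Nr1d1 and Cry2 it lies among or next to them.

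Among the 10 named genes with the largest increases, those outside the clock list included Galnt15, Inmt, Castor1, Traf1 and E530011L22Rik. Galnt15, a sugar transferase of the mucin-type O-glycosylation family, had 31.4, 22.5, 27.5 and 22.1 CPM in RW and 78.6, 75.9, 69.7 and 84.2 in aJ1aJ2, 2.97-fold higher (adjusted p = 0.0106), and passed in all 13 models that left out 1 library. Inmt, a methyltransferase of indoleamines, had 13.8, 5.58, 12.7 and 8.74 CPM in RW and 52.3, 37.5, 26.3 and 35.5 in aJ1aJ2, 3.70-fold higher.

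Castor1, an arginine sensor of the mTORC1 pathway, rose from 7.65 ± 1.87 to 19.6 ± 4.45 CPM, and Traf1, a signalling adaptor of the tumour necrosis factor receptor family, from 8.76 ± 1.01 to 25.6 ± 6.90 (SD, n = 4 each). The antisense transcript E530011L22Rik rose from 2.28 ± 0.628 to 6.26 ± 1.26 CPM and overlaps Nktr and Zfp651. Cirbp, a cold-inducible RNA-binding protein, had 25.0, 20.4, 39.8 and 27.6 CPM in RW and 48.3, 74.3, 76.6 and 69.9 in aJ1aJ2 (log2 1.25, adjusted p = 0.027). The other member of the cold shock list, Rbm3, did not pass. Of 76 nuclear genes of oxidative phosphorylation 1 passed, about the share over all genes tested (1.31%). This gene was Cox7a2l, an assembly factor of respiratory supercomplexes, at 1.48-fold. Cox7a2l did not pass over all 15 libraries (adjusted p = 0.643) and passed in 7 of 13 models that left out 1 library.

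Among the decreases, Dok5, a docking protein of receptor tyrosine kinases, had 10.1, 10.1, 8.07 and 10.5 CPM in RW and 1.69, 1.70, 1.65 and 1.35 in aJ1aJ2. It was 6.06-fold lower (log2 -2.60, SE 0.296, adjusted p = 0.00709) and passed in all 13 models that left out 1 library. Csmd2 and the glucose transporter family member Slc2a6 were 3.71-fold and 4.48-fold lower. Fam84a was 4.82-fold lower, but its RW libraries spread from 16.3 to 60.9 CPM.

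Genes of acute stimulation had lower means with ligand blockade and varied widely among the RW libraries. Egr1, a transcription factor induced within minutes of stimulation, had 107, 297, 32.2 and 59.8 CPM in RW and 12.3, 16.0, 16.6 and 26.5 in aJ1aJ2 (log2 -2.79, SE 0.575, adjusted p = 0.0385). It missed the threshold with the 2 groups alone (adjusted p = 0.0600) and passed in 3 of 13 models that left out 1 library. Egr2 had 4.84, 11.3, 3.58 and 6.46 CPM in RW and 1.58, 0.834, 1.12 and 1.19 in aJ1aJ2. The chemokine Ccl2 had 5.14, 18.9, 1.11 and 12.6 CPM in RW and 0.404, 0.161, 0.346 and 0.424 in aJ1aJ2. Egr2 and Ccl2 passed with the 2 groups alone, and in 5 and 6 of the 13 models that left out 1 library. Of the 12 immediate early genes 2 fell (none over all 15 libraries), beside 0.729% of all genes that fell. All 12 had a lower mean, as did 8600 of 18525 gene symbols tested. Of 20 heat shock genes 1 fell, beside the same 0.729% of all genes, and none passed over all 15 libraries. The gene that fell was Stip1, a co-chaperone, with 94.3 to 119 CPM in RW and 64.6 to 76.2 in aJ1aJ2. All 20 had a lower mean, with a median of -0.46.

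Most matrix genes had a lower mean with ligand blockade, and few passed. Of 43 collagen genes 2 fell (Col6a3 and Col3a1) and none rose, beside 0.729% of all genes that fell. Of the 43, 33 had a lower mean, as did 8600 of 18525 gene symbols tested, and the median was -0.56. With all 15 libraries 1 of the 43 passed. Col6a3 had 93.9, 87.2, 102 and 87.2 CPM in RW and 29.2, 27.1, 33.7 and 35.3 in aJ1aJ2 (log2 -1.56, SE 0.261, adjusted p = 0.0203). Col3a1, a fibrillar collagen of connective tissue, had 330, 220, 356 and 230 CPM in RW and 70.5, 46.4, 74.4 and 88.8 in aJ1aJ2 (log2 -2.02, SE 0.427, adjusted p = 0.0429), and overlaps Gm47302 on the same strand. Of 29 genes of collagen folding and crosslinking 2 fell, beside the same 0.729% of all genes, and 2 passed with all 15 libraries. Serpinh1, the collagen chaperone HSP47, had 154, 132, 115 and 142 CPM in RW and 76.2, 54.1, 63.3 and 52.6 in aJ1aJ2 (adjusted p = 0.0127), and P4ha1, which hydroxylates collagen prolines, had 59.2 to 85.1 and 34.8 to 46.4.

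Of 14 fibroblast markers 10 had a lower mean with ligand blockade, with a median of -0.20. Their summed level was 1302 to 1844 CPM in the kept RW libraries and 1437 to 2065 in aJ1aJ2, with no marker at 0, and Gsn alone gave 877 to 1200 and 1046 to 1231 of it. Without Gsn the sums were 474 to 602 and 473 to 589 CPM. The 14 endothelial markers summed to 1248 to 1456 CPM and 1131 to 1495. Of 14 mural cell markers 11 had a lower mean and 4 did not overlap between groups, beside 15.2% of all genes. The 14 had a median of -0.35. They summed to 649 to 1189 CPM in RW and 627 to 1227 in aJ1aJ2. On the TMM scale and without Des, which skeletal muscle also expresses, the sums were 626 to 822 and 491 to 632. No marker of these 3 lists passed the test. RW replicate 4 had 451 CPM over 9 cartilage and airway markers, against 22.3 to 31.5 CPM in the other kept RW libraries and 14.0 to 32.6 in aJ1aJ2. The 3 parathyroid markers summed to 63.7 CPM in RW replicate 4 and 36.3 in aJ1aJ2 replicate 4, against 3688 to 11188 CPM in the other kept libraries. The 9 thymus markers summed to 7.44 to 9.04 CPM in RW and to 60.9, 9.59, 11.3 and 41.1 in aJ1aJ2, so the sums did not overlap, and all 7 that were tested had a higher mean, with a median of 3.92 and none past the threshold. The part of dissection in the differences above was not tested.

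Of 11 genes of fatty acid synthesis, in a list added after values had been seen, 5 fell (Fasn, Acly, Acaca, Elovl5 and Me1), none rose and 2 had a higher mean, beside 0.729% of all genes that fell. None of the 11 passed over all 15 libraries. Fasn, the fatty acid synthase, had 1223, 857, 932 and 739 CPM in RW and 263, 378, 471 and 319 in aJ1aJ2 (log2 -1.39, SE 0.238, adjusted p = 0.0229). Srebf1, which encodes a transcription factor of these enzymes, had 88.0 to 113 CPM in RW and 118 to 160 in aJ1aJ2 (adjusted p = 0.247), in the opposite direction. Of 13 tubulin genes, likewise added, 3 fell (Tuba1a, Tuba1c and Tubb6), beside the same 0.729% of all genes, and none passed over all 15 libraries.

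Of 7 Notch readout genes tested, none passed. Hes5 was below the count filter, with 0 counts in the kept RW libraries and 1 in the kept aJ1aJ2 libraries. The median log2 fold change was -0.52, and 5 of the 7 had a lower mean. Notch3, a receptor gene and itself a Notch target in mural cells, had 38.6, 38.6, 39.6 and 39.9 CPM in RW and 19.7, 29.9, 27.9 and 31.3 in aJ1aJ2 (log2 -0.52, SE 0.174, adjusted p = 0.161). Heyl had 33.5 to 50.2 CPM in RW and 14.4 to 29.0 in aJ1aJ2 (log2 -0.83, adjusted p = 0.197). Hey1 had 6.96 to 9.28 CPM in RW and 3.81 to 5.53 in aJ1aJ2 (log2 -0.66, adjusted p = 0.0677). The groups of these 3 genes did not overlap, as was so for 15.2% of all genes. With the 2 groups alone Hey1 (adjusted p = 0.0424) and Notch3 (0.0492) passed, beside 5.69% of all genes.

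Hes1 had 31.7 to 61.0 CPM in RW and 26.3 to 48.0 in aJ1aJ2, and Hey2 had 5.39 to 6.64 and 2.75 to 5.47, with overlapping groups. Nrarp, a feedback inhibitor of the pathway, was near the floor, at 0.0392 to 0.209 CPM in RW and 0.266 to 0.45 in aJ1aJ2. Its groups did not overlap, in the direction opposite to Notch3, Heyl and Hey1 (log2 1.67, adjusted p = 0.0936). Dtx1 was at 1.53 to 9.68 CPM in RW and 1.60 to 12.3 in aJ1aJ2, with overlapping groups. Of the 8 other receptor and ligand genes none passed, with log2 differences from -0.32 (Dll1) to 0.41 (Notch4). Jag1, the target of one of the antibodies, had 30.9 to 55.3 CPM in RW and 30.3 to 44.0 in aJ1aJ2, and Jag2 had 13.8 to 23.5 and 19.5 to 25.9. An antibody against the protein need not change these transcripts.

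The aN1aN2 group was compared with the same RW libraries, so the 2 contrasts share their controls and are given side by side only. For Nr1d1 the log2 fold change was 1.82 with ligand blockade and 1.78 with receptor blockade, and for Dbp 3.11 and 3.32. For Hspa5 it was -1.78 and -1.63, for Calr -1.57 and -1.16, for Derl3 -2.27 and -1.71, and for Fasn -1.39 and -1.62. For Galnt15 it was 1.57 and 0.95, and for Col3a1 -2.02 and -0.34.

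The same antibodies were compared with RW at 15 hours and, in a first set of mice, at 7 days, each in other mice with other controls. At 15 hours 106 of 18513 genes passed (0.573%). At 7 days 0 of 16954 passed with edgeR, 1968 had an unadjusted p under 0.05 (11.6%), and 476 passed with DESeq2. Of the 242 genes called at 5 days, 230 were tested at 7 days, 163 had the same direction and 0 passed. At 15 hours 238 were tested, 89 had the same direction and 1 passed, Hpd, in the opposite direction (log2 3.90 at 5 days and -3.58 at 15 hours, with a mean of 0.259 CPM in aJ1aJ2 at 5 days; named after its values were seen). The difference between times was not tested.

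The contrast between treatment groups in the endoplasmic reticulum list was largest at 5 days, with a median of -1.42 beside 0.08 at 15 hours and -0.15 at 7 days. The clock list had a median of -0.29 at 15 hours and 0.71 at 7 days, where 15 of 18 genes had a higher mean. The fatty acid synthesis list had a median of -0.61 at 5 days and 0.62 at 7 days. The Notch readouts had a median of -0.02 at 15 hours and -0.63 at 7 days, where all 7 had a lower mean, and Notch3 passed at 15 hours (log2 -0.89, adjusted p = 0.0443). Galnt15 had a log2 difference of 0.01 at 15 hours and 1.87 at 7 days (adjusted p = 0.128).

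**Figure D4:**
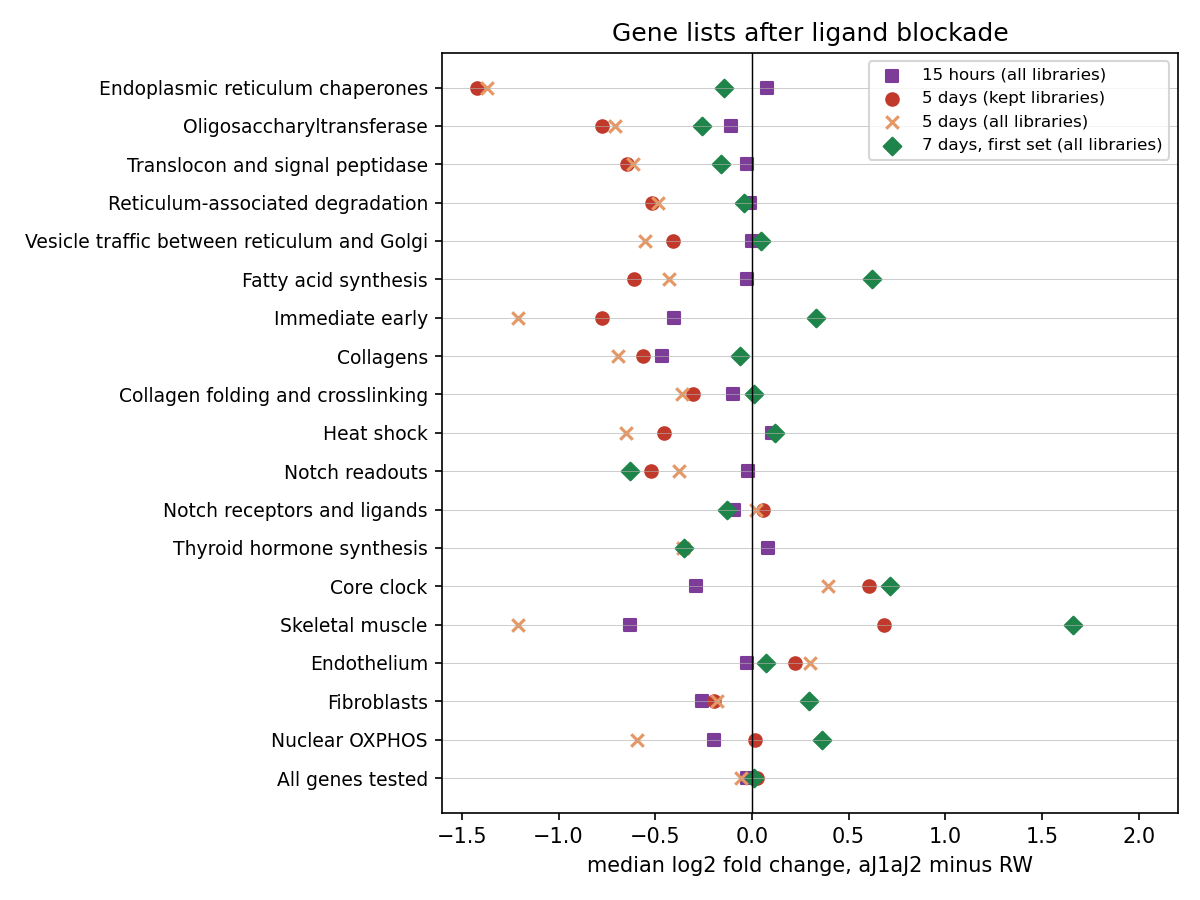
Median log2 fold change of aJ1aJ2 over RW (horizontal axis) for 18 gene lists and all genes tested, at 15 hours (purple squares), 5 days in the kept libraries (red circles), 5 days in all libraries (orange crosses) and 7 days in the first set (green diamonds). The endoplasmic reticulum chaperones lie at -1.42 at 5 days, 0.08 at 15 hours and -0.15 at 7 days, and skeletal muscle moves from 0.68 to -1.21 when all libraries of 5 days are used.

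Levels were then put on a common scale across the 3 times, again with Tg at 5% or more, which kept all 5 RW and 5 aJ1aJ2 libraries at 15 hours and at 7 days. Tg took 14.5% to 33.2% of counts in RW at 15 hours, 34.0% to 40.3% at 5 days and 22.9% to 36.5% at 7 days. The chaperones were higher, on the median, in the isotype group at 5 days than in those of the other times. Single libraries overlapped with 15 hours, where Hspa5 reached 3173 CPM in RW, against 2991 in RW replicate 4 at 5 days. Hspa5 was 2153 ± 887 CPM in RW at 15 hours (n = 5), 4360 ± 1308 at 5 days (n = 4) and 1140 ± 272 at 7 days (n = 5), while aJ1aJ2 had 2445 ± 931, 1252 ± 124 and 1037 ± 378 (SD). Over the 20 chaperone genes, the median log2 difference from RW at 5 days was -1.44 in aJ1aJ2 at 5 days, -0.73 in RW at 15 hours and -1.39 in RW at 7 days. In these genes the ligand-blocked thyroid at 5 days was at about the level of the isotype thyroid at 7 days.

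Nr1d1 showed the same layout in the other direction. RW had 143 ± 27.9 CPM at 15 hours, 48.8 ± 4.09 at 5 days and 154 ± 19.1 at 7 days, and aJ1aJ2 had 98.3 ± 36.1, 170 ± 24.3 and 194 ± 35.7 (SD). Egr1 had 134 ± 131 CPM in RW at 5 days, against 33.3 ± 26.9 at 15 hours and 24.4 ± 5.84 at 7 days. Over the 107 genes called higher, the median difference from RW at 5 days was 0.90 in aJ1aJ2 at 5 days, 0.53 in RW at 15 hours and 0.64 in RW at 7 days. Over the 135 called lower these medians were -0.82, -0.37 and -0.71, beside 0.01, 0.07 and 0.01 over all genes. The RW libraries of 5 days chose these genes, so a return toward other groups is built into the choice and was not tested.

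Dok5 and Galnt15 did not have that layout. Dok5 in RW had 9.30 ± 2.09, 10.4 ± 1.27 and 3.08 ± 0.669 CPM at 15 hours, 5 days and 7 days, so RW at 5 days was at the level of 15 hours, and aJ1aJ2 had 7.92 ± 2.61, 1.69 ± 0.178 and 3.11 ± 0.782 (SD). For Galnt15, RW had 32.7 ± 9.71, 27.7 ± 4.41 and 22.4 ± 8.18 CPM at 15 hours, 5 days and 7 days, and aJ1aJ2 had 33.7 ± 9.11, 81.7 ± 6.19 and 81.9 ± 52.1 (SD). Col3a1 was 307 ± 74.7, 304 ± 70.1 and 123 ± 30.4 CPM in RW and 186 ± 45.5, 74.2 ± 18.6 and 71.9 ± 16.1 in aJ1aJ2, so aJ1aJ2 had the lower mean at every time. Tef was 43.1 ± 9.97 CPM in RW at 5 days and 158 ± 20.1 at 7 days, and 141 ± 58.5 and 323 ± 61.1 in aJ1aJ2. Time, time of day at collection and any batch that went with a time point cannot be told apart in these levels. The Tg share also differed between the times, and its part in these levels was not tested.

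**Figure D5:**
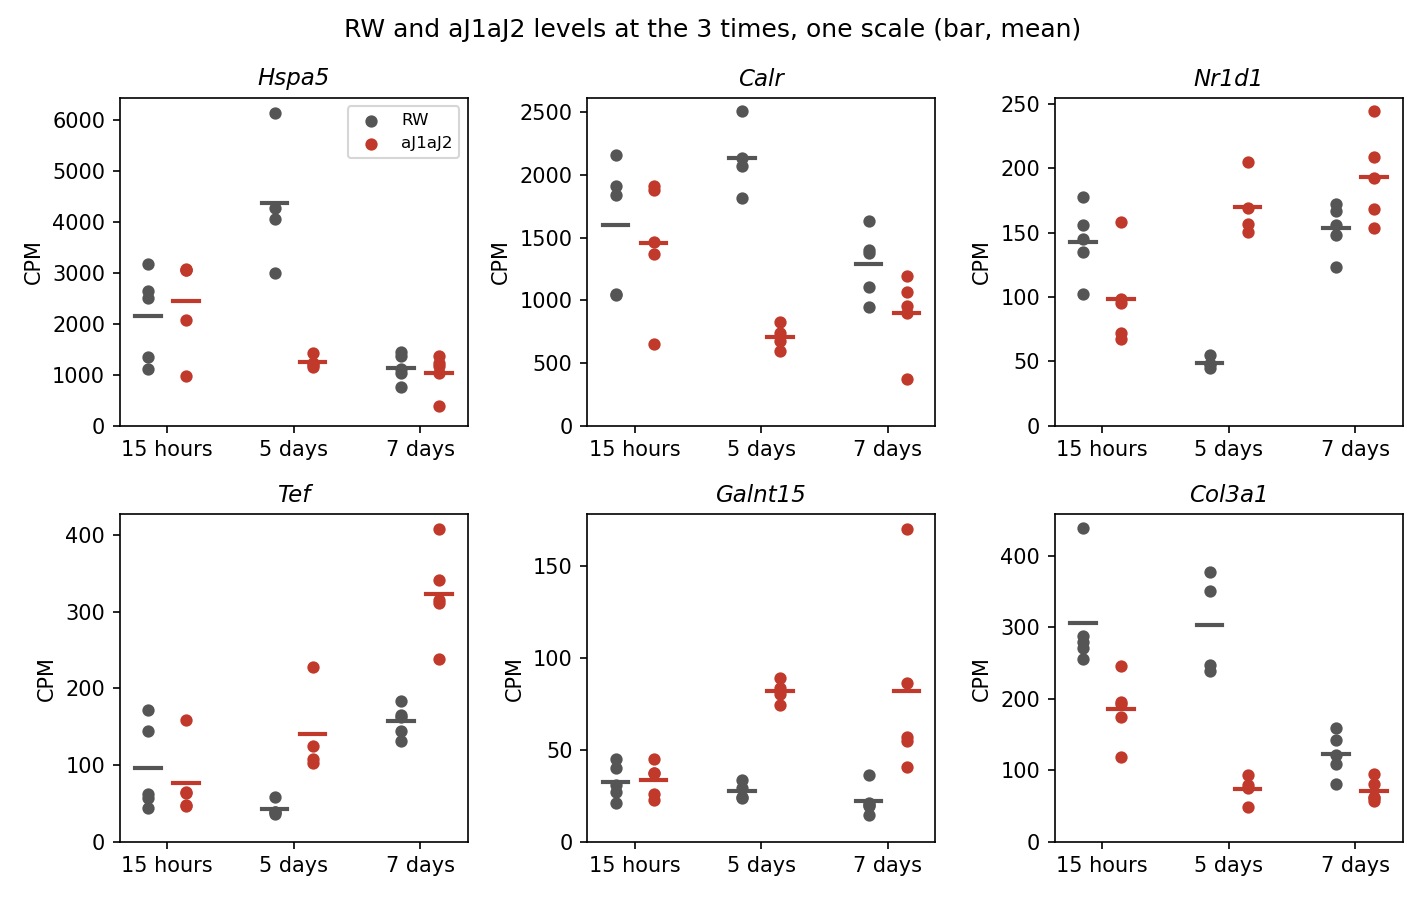
CPM on a common scale (vertical axis, from 0) for 6 genes in RW (grey) and aJ1aJ2 (red) libraries at 15 hours, 5 days and 7 days, 1 point a library with a bar at the mean. Hspa5 in RW is highest at 5 days (mean 4360 CPM) and Nr1d1 in RW lowest (48.8 CPM), while Galnt15 in RW stays between means of 22.4 and 32.7 CPM.

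The left-out libraries can be read against the kept ones on the scale of the model with all 15 libraries. Serpinh1 was at 195 CPM in the left-out RW library and 57.6 in the left-out aJ1aJ2 library, beside 112 to 150 in the kept RW and 50.7 to 74.2 in the kept aJ1aJ2 libraries, and Dok5 was at 18.3 and 3.19 CPM, so both genes kept their order. Inmt, at 13.9 and 44.9 CPM, did so too. Nr1d1 was at 193 CPM in the left-out RW library and 131 in the left-out aJ1aJ2 library, and Tef at 324 and 270, the reverse of the kept libraries. Calr was at 298 and 241 CPM, in the order of the kept groups but below every kept library of either group. Over all 15 libraries Serpinh1 and Inmt had an adjusted p of 0.0097 each and Dok5 of 0.0112, whereas Nr1d1 had 0.316 and Calr 0.238.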

How the data were processed

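RNA was sequenced from thyroids with single reads of 50 bases, per the labels. The authors deposited raw counts per gene and FPKM values, both for all 50 libraries and 52636 genes. The submitters' processing notes name GSNAP and limma; a version for either, a build, an annotation and a strand setting were not given in the sources used here. Gene symbols came from GENCODE M21 for 52489 identifiers, and the overlaps between genes came from its exon coordinates.

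Counts were tested with edgeR 4.0.16 in R 4.3.3 (robust quasi-likelihood test, TMM normalization, filterByExpr with min.count 10 and min.total.count 15, two-sided, Benjamini-Hochberg adjustment over all genes tested, threshold 0.05). The model held the RW, aJ1aJ2 and aN1aN2 libraries of 5 days with Tg at 5% or more of counts. CPM values are TMM-scaled. RW, aJ1aJ2 and aN1aN2 of 15 hours, and RW and aJ1aJ2 of 7 days, were fitted separately with all their libraries. Alternatives were DESeq2 1.42.0, limma 3.58.1 with voom weights, limma on log2(FPKM + 0.1) and log2(FPKM + 1) of the deposited FPKM values, other scalings, filters and Tg limits, and models that left out 1 library. Levels across times used 1 TMM scale over 28 libraries.

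The members and lists were chosen with earlier results of these data known. Named genes were those past the threshold with groups that did not overlap and a mean of at least 5 CPM in the higher group, the 10 largest changes each way, plus up to 4 called members of each of 27 lists and every Notch readout and thyroid hormone gene; 6 lists were added after values were seen. Some genes that this rule selects are not reported here. In simulated counts (18271 genes), the test recovered 25.9% of 2-fold and 95.9% of 4-fold increases, and 14% and 88.9% of decreases of the same sizes, with 11 false calls. Of the 30 pairs of libraries within groups of 5 days, none agreed within sampling noise (chi-square per degree of freedom at least 17.3). Depth was 23832498 to 52835846 counts in the kept libraries of the comparison.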

Additional observations from a re-analysis of the deposited data

Results flagged for a closer look

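Of 112 groups of 4 or 5 libraries checked for a sample far from the others, 10 were picked out, at a limit that chance passes in about 1 in 20. The flags of Tg and of skeletal muscle below lie in the libraries that the Tg limit left out, so they restate that choice. The 10 are thus not a count to set against chance. In RW replicate 3, Tg at 0.450% of counts lay far below the other RW libraries (34.0% to 40.3%) and the skeletal muscle share of 11.7% far above them (0.109% to 1.02%). In aJ1aJ2 replicate 3 the skeletal muscle share was 7.82%, against 0.158% to 1.82% in the others. Both are the libraries left out of the comparison.

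In aJ1aJ2 replicate 1, Dbp at 26.4 CPM and Per3 at 48.1 CPM lay far above the other 3 aJ1aJ2 libraries (6.51 to 7.36 and 19.2 to 22.2 CPM). Nr1d2 at 32.1 CPM in RW replicate 5 lay above the other RW libraries (20.0 to 20.8 CPM). Slc5a5 at 146 CPM in RW replicate 4 lay above 99.1 to 104 CPM. In RW replicate 2, Slc2a6 was at 17.8 CPM (14.3 to 14.7 in the others) and Calr-ps at 20.4 CPM (16.6 to 16.7). Dok5 at 1.35 CPM in aJ1aJ2 replicate 5 lay below the other aJ1aJ2 libraries (1.65 to 1.70 CPM).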

How the results depend on the processing

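The 242 genes called at 5 days became 1008 in the model without aN1aN2, 33 with all 15 libraries, 537 at a Tg limit of 10%, 104 with no filter on low counts, 1328 with DESeq2, 3636 with limma-voom and library quality weights, 1002 with the skeletal muscle share and 1484 with the Tg share as a covariate, and 123 with the replicate block. Settings added after seeing the data gave 1600 without the 2 aN1aN2 libraries richest in skeletal muscle and 0 with all 10 RW and aJ1aJ2 libraries alone (1722 genes at an unadjusted p under 0.05, edgeR). RLE scaling (234), leaving out Tg (220), a Tg limit of 1% (197) and log2 FPKM values (262 and 261) stayed within 1.5 times. Models without 1 library gave 17 (without RW replicate 2) to 564 genes (without aN1aN2 replicate 4). Without RW replicate 1 or 5 the count was 30 or 31, without aJ1aJ2 replicate 2, 4 or 5 it was 25, 19 or 39, without aJ1aJ2 replicate 1 it was 147, without RW replicate 4 it rose to 329, and leaving out aN1aN2 replicate 1 gave 537. The cause was not tested.

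At 15 hours the 106 genes became 318 with DESeq2 and 36 with the replicate block, and 35 to 127 without 1 library. At 7 days the 0 genes became 20 with no filter and 476 with DESeq2, stayed at 0 with the replicate block, and were 0 to 20 without 1 library.

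The replicate numbers did not pair the 5-day libraries: same-numbered deviations correlated at -0.08 to 0.18, over 0.1 in 2 of 4 pairs, and 1 RW library correlated best with its own number. Members of lists that passed ranged, without 1 library, from 0 to 14 for the endoplasmic reticulum chaperones, 2 to 6 for the clock, 2 to 10 for the oligosaccharyltransferase, 0 to 10 for the translocon, 1 to 14 for vesicle traffic, 0 to 5 for reticulum-associated degradation, 0 to 5 for fatty acid synthesis, 0 to 6 for tubulins, 0 to 5 for collagens, 0 to 7 for collagen folding and 0 to 3 for immediate early genes. Nr1d1, Dok5, Galnt15, Cry2 and Inmt passed in all 13 of these models. None of the 32 called genes that were rerun under the other settings changed sign in them. At 4 libraries a group, 2-fold changes were often missed in simulated counts.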
